A study of Mus musculus with 92 samples.

Results

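The genes described here make microRNAs or carry out their silencing. They are Drosha and Dgcr8, which together cut microRNA precursors in the nucleus; Dicer1 and Tarbp2, which do so in the cytoplasm; Ago2, which holds the microRNA; Tnrc6a and Tnrc6b, which silence its targets; and Tut7, which adds uridines to precursors. They were chosen by name, 4 of them (Dicer1, Tarbp2, Tnrc6a and Tut7) without condition and the other 4 where a row was present. The 4 taken without condition were known to stand out in these data. All 8 had a row in the deposited count table, out of 7886 genes in all. By its name, that table had already been filtered on the level of each gene, so all genes here means those that passed. A gene or marker without a row is therefore not shown to be silent. The cells were single blastomeres of 8-cell mouse embryos, C57BL/6N and wild type in every group, from zygotes that had been microinjected. The injected material was a let-7d-5p mimic (Let7d), a let-7e-5p mimic (Let7e), a microRNA that the labels call mi699a-5p, or a negative control (NC). No uninjected cell is part of the comparison, so all groups share the injection. Cells were prepared with Smart-seq2, which amplifies full-length cDNA of one cell and carries no molecular identifiers.

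Let7d cells came from 3 mouse ids with 18 cells, Let7e cells from 4 mouse ids with 20 cells, mi699a-5p cells from 4 mouse ids with 21 cells, and NC cells from 3 mouse ids with 22 cells. The mouse id is the replicate here, numbered within each group as in the labels, and the labels do not say what it stands for (embryo, dam or donor). The p-values therefore measure the spread between mouse ids only. In Let7d, 2 columns labelled as separate cells differed by about the sampling noise (chi-square per gene 1.05). They were taken to be 1 library and counted as 1 cell. Levels are in CPM, which express a gene's reads relative to all reads of the library, so that libraries of unequal depth can be compared. For a mouse id they come from the summed cells, with TMM scaling factors, and for 1 cell from its own reads.

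Reads per cell, averaged within a mouse id, ranged from 2991646 to 4071285 in Let7d, from 2916582 to 3164732 in Let7e, from 1936975 to 2437853 in mi699a-5p and from 2225246 to 2732434 in NC. The 3 ribosomal RNA rows took 3.68% to 8.79% of reads in Let7d, 6.0% to 13.98% in Let7e, 8.03% to 12.58% in mi699a-5p and 9.24% to 15.89% in NC. Depth and this share thus differed between labels, and each label had its own mouse ids, so the injected material and a batch that follows the labels cannot be told apart. Of 16 blastomere markers 14 had a row, Pou5f1, Nanog and Tfap2c among them, and their summed level was 6080 to 7950 CPM in Let7d, 7720 to 7970 CPM in Let7e, 7140 to 10200 CPM in mi699a-5p and 7160 to 7870 CPM in NC. None of the 8 cumulus and granulosa, 6 blood, 4 skin and 4 stromal markers had a row, and 1 of 8 sperm markers did (Odf2).

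A microRNA begins as a hairpin in a longer transcript. Drosha, with its RNA-binding partner Dgcr8, releases the hairpin, and Dicer, with the partner that Tarbp2 encodes, cuts it to a short duplex. One strand enters an Argonaute protein such as Ago2, which pairs with target mRNAs through the seed, bases 2 to 8 of the microRNA. GW182 proteins, encoded by Tnrc6a, Tnrc6b and Tnrc6c, bind Argonaute and bring in the enzymes that shorten the poly(A) tail and remove the cap. Tut7 and its relative Tut4 add uridines to let-7 precursors; with Lin28a present this leads to their decay. A mimic is supplied as a processed duplex, so it does not need Drosha or Dicer. Mouse oocytes need Dicer, but carry little microRNA silencing activity, and canonical microRNA activity is known to be low around fertilization.

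The mature sequences of both let-7 microRNAs, from RefSeq (GRCm38.p6), are shown because both share one seed, given in capitals. The first lies at chr13:48536078-48536099 on the minus strand and the second at chr17:17830366-17830387 on the plus strand.
mmu-let-7d-5p: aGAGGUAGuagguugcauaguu
mmu-let-7e-5p: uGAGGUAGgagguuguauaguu
Counted from the 5′ end, they differ at 3 of 22 bases, A1U, U9G and C16U, where the let-7d base is given first. None of these lies in the seed. No sequence is printed for mi699a-5p or for the control.

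Matches to the let-7 seed were searched on the sense strand of the members' transcripts, 1 transcript per gene (the one with the longest annotated 3′ UTR, GENCODE M21, GRCm38). The motifs were CTACCTC, the match to bases 2 to 8; CTACCTCA, the same followed by A, called an 8mer; and TACCTCA, which pairs with bases 2 to 7 and is followed by A. An 8mer holds the other 2 motifs and was counted once. The coding sequence of Dicer1 holds 4 matches to bases 2 to 8, 3 of them 8mers. Of 7574 genes with an annotated 3′ UTR, 13.2% have at least 1 such match in the coding sequence, 7 genes (0.0924%) have at least 4, and 4 genes (0.0528%) have at least 3 coding 8mers. Dicer1 had 0.699 coding matches per kb, against 0.0902 per kb over all these genes, and none in its 3′ UTR of 3851 bases. In human cells, let-7 has been reported to repress DICER1 through matches in its coding sequence, which is why the mouse matches are shown, with the match in capitals and the start of each counted from the first coding base.
Dicer1 coding base 2605, chr12:104706558-104706580, minus strand: cagcctactgtgttCTACCTCtt
Dicer1 coding base 3611, chr12:104702803-104702825, minus strand: acctgtacaaccaaCTACCTCAt
Dicer1 coding base 3719, chr12:104702695-104702717, minus strand: gaacgctaacacatCTACCTCAg
Dicer1 coding base 5091, chr12:104694695-104694717, minus strand: gatgcgattttggaCTACCTCAt

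In 3′ UTRs, 17% of the 7574 genes have at least 1 of the 3 motifs and 10.6% have a match to bases 2 to 8. Of the 8 members, 4 have any of the 3 motifs there. Tarbp2 (1) and Ago2 (3, of which 1 is an 8mer) have matches to bases 2 to 8; Tnrc6a and Tnrc6b have 1 TACCTCA each, and Ago2 has 1 more. Ago2 has a long 3′ UTR of 11064 bases, with 0.271 matches to bases 2 to 8 per kb, while Tarbp2 has 1 match in 334 bases; over all genes there were 0.0742 per kb. Tut7, Drosha and Dgcr8 have none of the 3 motifs in the 3′ UTR and no match to bases 2 to 8 in the coding sequence. TACCTCA in coding sequences is not given here. The matches of Tarbp2 and Tnrc6a are shown because these transcripts gave the lowest p-values among the members in the comparisons with NC.
Tarbp2 3′ UTR, chr15:102523430-102523452, plus strand: cagaggtgccatctCTACCTCtg
Tnrc6a 3′ UTR, chr7:123194894-123194916, plus strand: gtgttaacctctcaTACCTCAca
A match is a description of the letters and not a measured site. Ago2, with more matches, had log2 fold changes of -0.27 in Let7d and 0.03 in Let7e against NC. Tnrc6b, with 1 TACCTCA as in Tnrc6a, had -0.53 and 0.11. Tarbp2 was low in mi699a-5p (-0.87) as well as in Let7d (-1.02) and Let7e (-0.45). Whether any match acts was not tested.

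All 8 transcripts were measured in nearly every blastomere. Tarbp2, Tnrc6a, Tut7, Ago2 and Drosha had reads in all 81 cells, while Dicer1 was at 0 in 2 cells, Tnrc6b in 3 and Dgcr8 in 5. The table had been filtered on level, and the share of all genes with reads in every cell was not computed. These counts are thus not shown to be particular to the members. Levels per kb used the merged length of all annotated exons of a gene, which can exceed that of 1 transcript. By this length, the mean level over the 14 mouse ids was highest for Ago2 (28.7 CPM per kb), the slicing Argonaute, followed by Tarbp2 (14.8), Drosha (7.2), Dgcr8 (4.61), Dicer1 (3.78), Tut7 (3.76), Tnrc6a (3.42) and Tnrc6b (1.16). For Tarbp2 the merged length was 4.55 kb, while its transcript searched above has 1098 coding and 334 3′ UTR bases. The order of the members, Ago2 and Tarbp2 included, therefore depends on the length used. The median of all genes was 9.96 CPM per kb, so that Ago2 and Tarbp2 lay above it and the other 6 below it. Their coefficients of variation over the 14 mouse ids ran from 29.6% for Drosha to 47.5% for Dicer1, against a median of 37.8% for all genes.

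Among the members, Tarbp2 was lower in every mouse id that received a microRNA than in any NC mouse id, as were 22 genes in all (0.279%). Tnrc6a averaged 38% of its NC level in Let7e cells, and Tut7 averaged 186% of its NC level in Let7d cells. Dicer1 was highest in Let7d cells and lowest in Let7e cells, with a wide spread in Let7d. None of these differences passed the threshold of an adjusted p under 0.05 (edgeR quasi-likelihood test, Benjamini-Hochberg over 7886 genes) in any of the 6 contrasts. At an unadjusted p under 0.05 there were 10 of 48 gene-contrast pairs, and the share of all genes ran from 3.89% to 6.39% by contrast. All were from Dicer1, Tarbp2, Tnrc6a and Tut7 (10 of 24) and none from Tnrc6b, Ago2, Drosha and Dgcr8 (0 of 24). Dicer1, Tarbp2, Tnrc6a and Tut7 were chosen when they were known to stand out in these data, so these counts describe them and are no support. DESeq2 gave 9 of 48 and limma on mean cell levels 11 of 48 at the unadjusted threshold. Both gave 0 adjusted, but DESeq2 gave no adjusted p for 8 of the 48 pairs, 7 of them in Let7d against NC, so these could not be called. The contrasts share samples, the 3 NC mouse ids above all, so these pairs are not independent.

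**Figure D1:**
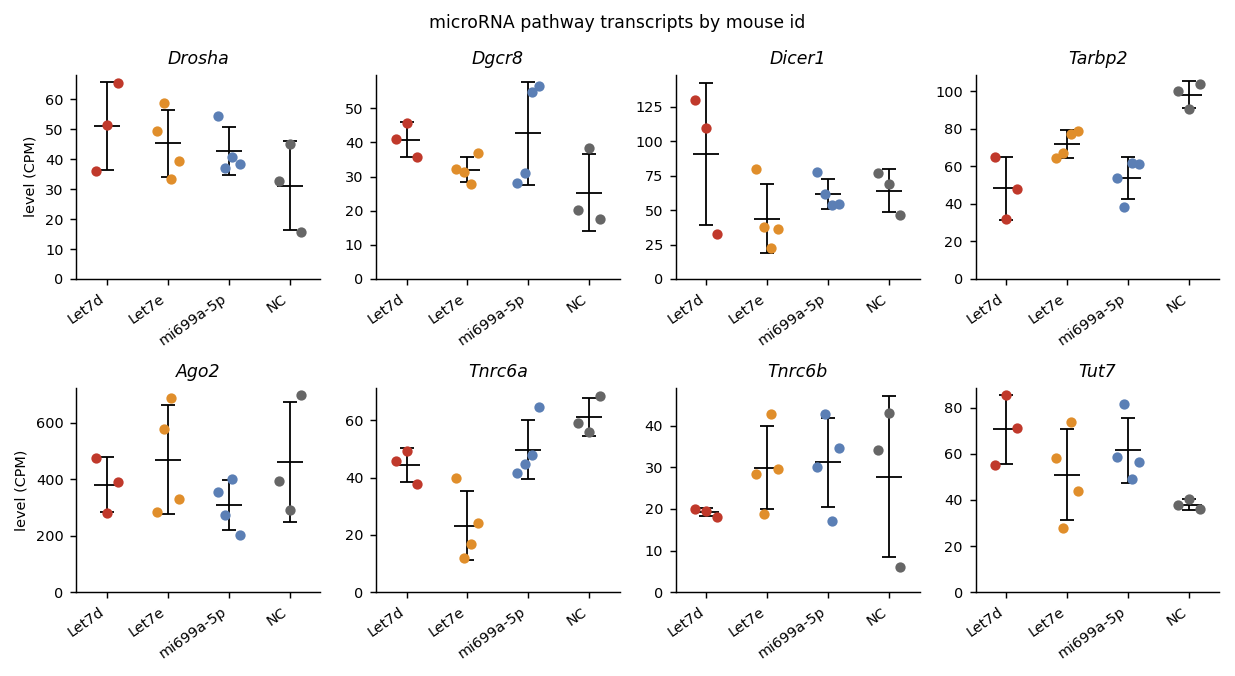
Level of each gene in CPM (vertical axis, from 0) for the 4 labels; each point is 1 mouse id and the bar is the mean with its SD (n = 3, 4, 4 and 3). For Tarbp2 the NC points, at 90.4 to 104 CPM, lie above all 11 points of the 3 microRNA labels; for Tut7 the NC points lie between 35.9 and 40.4 CPM.

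The members' counts were set beside those of all genes. In Let7d against NC, the mouse ids of 3 of 8 members did not overlap (Tarbp2 and Tnrc6a below, Tut7 above), against 12% of all genes. At an unadjusted p under 0.05 there were 2 of 8, against 4.69% of genes, and at an adjusted p none, against 0.0127%. That share was 1 gene without a symbol, ENSMUSG00000118642.1, named after its value was seen. In Let7e against NC, 2 of 8 did not overlap (Tarbp2 and Tnrc6a below), against 5.62% of genes, and 1 of 8 had an unadjusted p under 0.05, against 4.02%; no gene passed the adjusted threshold (0%). In mi699a-5p against NC, 2 of 8 did not overlap (Tarbp2 below, Tut7 above), against 8.38%, and 1 had an unadjusted p under 0.05, against 5.5%, with 0% passing the adjusted threshold. For the mean of both let-7 groups against NC, 2 of 8 did not overlap, against 1.78%, and 3 had an unadjusted p under 0.05, against 3.89%, with 0.0127% of genes passing the adjusted threshold. The members named first in the choice were known to stand out in these data, so these counts describe the members and do not support them.

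In Let7e against Let7d no member was without overlap, against 6.07% of genes, and 2 of 8 had an unadjusted p under 0.05 (Dicer1 and Tnrc6a, both lower in Let7e), against 5.39%. For the mean of both let-7 groups against mi699a-5p the counts were 0, against 1%, and 1 (Tnrc6a), against 6.39%; no gene passed the adjusted threshold in either contrast (0%). In the test of any difference among the 4 labels, Tnrc6a had an unadjusted p of 0.00901 and Tarbp2 of 0.0108 (both adjusted p = 0.83; edgeR), and 5.59% of genes had an unadjusted p under 0.05 and 0% an adjusted one. Against NC, the median log2 fold change of the 8 members was 0.11 for Let7d, 0.07 for Let7e and 0.06 for mi699a-5p, beside 0.01, 0.02 and 0.04 for all genes. The estimates lay on both sides of 0, with 4, 3 and 4 of 8 below it.

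In the nuclear step, Drosha, the endonuclease (chr15:12824815-12935291, plus strand, GRCm38 as all coordinates of genes here), had 36, 51.5 and 65.5 CPM in Let7d mouse ids 1 to 3, 49.4, 58.9, 33.3 and 39.4 CPM in Let7e 1 to 4, 54.4, 37.1, 40.7 and 38.5 CPM in mi699a-5p 1 to 4, and 32.7, 45.1 and 15.6 CPM in NC 1 to 3. The groups overlapped, and NC mouse id 3 was the lowest of all. The log2 fold changes were 0.71 ± 0.40 for Let7d, 0.54 ± 0.38 for Let7e and 0.45 ± 0.38 for mi699a-5p against NC (SE; unadjusted p = 0.0926, 0.169 and 0.243; edgeR). Without NC 3 they were 0.39, 0.22 and 0.13, and without NC 2 they were 1.08, 0.91 and 0.82 (unadjusted p = 0.0263, 0.0467 and 0.0681; edgeR). Dgcr8, the RNA-binding partner of Drosha (chr16:18253948-18289246, minus strand), had 41.1, 45.7 and 35.6 CPM in Let7d, 32.2, 31.4, 27.8 and 36.8 CPM in Let7e, 28.2, 31.1, 54.8 and 56.5 CPM in mi699a-5p, and 20.1, 38.3 and 17.5 CPM in NC. Here too the 3 microRNA groups overlapped NC, in which mouse id 2 was well above the other two. The log2 fold changes were 0.69 ± 0.40 for Let7d, 0.34 ± 0.38 for Let7e and 0.75 ± 0.38 for mi699a-5p against NC (unadjusted p = 0.102, 0.378 and 0.0632; edgeR). Without NC 3 they were 0.48, 0.13 and 0.54, and without NC 2 they were 1.12, 0.77 and 1.18 (unadjusted p = 0.0197, 0.0792 and 0.0121; edgeR). The 3′ end of Dgcr8 overlaps Trmt2a on the opposite strand, and whether the counting used strand is not given in the sources used here. It also overlaps Gm49776, which has no row, on the same strand, where strand would not separate the genes. Reads of these overlaps cannot be assigned.

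Both nuclear genes had the same order of NC mouse ids (2 highest, 3 lowest), and their log2 levels over the 14 mouse ids had r = 0.50, a description in which all points share library and depth. Of the other 9 listed genes of nuclear processing and export, all had a row. Ddx5, a helicase partner of Drosha, averaged 727 ± 101 CPM and Ran, the GTPase that drives export, 612 ± 96.6 CPM (SD over 14 mouse ids). None of the 9 reached an unadjusted p under 0.05 in a comparison with NC. Between Let7e and Let7d, Ddx17, the paralog of Ddx5, averaged 119 ± 22.9 CPM in Let7e and 67.2 ± 35.1 CPM in Let7d (log2 fold change 0.83 ± 0.34, unadjusted p = 0.0243, adjusted p = 0.924; edgeR). Xpo5, which exports precursor hairpins, had log2 fold changes of 0.17 ± 0.28 for Let7d, -0.08 ± 0.26 for Let7e and 0.22 ± 0.27 for mi699a-5p against NC.

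Dicer1, the cytoplasmic endonuclease (chr12:104687742-104751952, minus strand), had 130, 110 and 32.4 CPM in Let7d, 79.7, 37.4, 22.4 and 36.1 CPM in Let7e, 77.6, 61.5, 53.4 and 54.5 CPM in mi699a-5p, and 76.7, 69.1 and 46.7 CPM in NC. Let7d mouse ids 1 and 2 were the highest of all 14 and Let7d mouse id 3 was among the lowest, so that group spanned nearly the whole range. Against NC the log2 fold changes were 0.50 ± 0.47 for Let7d, -0.55 ± 0.43 for Let7e and -0.06 ± 0.44 for mi699a-5p (unadjusted p = 0.3, 0.224 and 0.9; edgeR). With 1 mouse id left out, Let7d against NC ran from 0.15 (without Let7d 1) to 0.91 (without Let7d 3, unadjusted p = 0.0461), and Let7e against NC from -1.0 (without Let7e 1, unadjusted p = 0.0289) to -0.33 (without Let7e 3; edgeR). Let7e cells averaged 43.9 ± 24.8 CPM and Let7d cells 90.7 ± 51.4 CPM (SD, n = 4 and 3), a log2 fold change of -1.04 ± 0.43 with a 95% interval of -1.95 to -0.13 (unadjusted p = 0.0269, adjusted p = 0.924; edgeR). The mouse ids of both groups overlapped. Without Let7d mouse id 1 the log2 fold change was -0.70 (unadjusted p = 0.166; edgeR), and over all 14 fits that left out 1 mouse id it ran from -1.50 to -0.70.

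The split within Let7d was also seen in the median cell, although single cells of the 3 mouse ids overlapped. The median blastomere had 153 CPM of Dicer1 in Let7d mouse id 1 (range 44.5 to 225 CPM) and 128 CPM in mouse id 2 (16.5 to 211 CPM). In mouse id 3 the median was 21.1 CPM, and 7 cells ranged from 10.6 to 99.9 CPM. In Let7e the medians of the 4 mouse ids were 74.8, 43.5, 21.7 and 38.5 CPM, in mi699a-5p 65.8, 41.3, 47 and 38.4 CPM, and in NC 61.5, 66.4 and 36.9 CPM.

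Tarbp2, which encodes the double-stranded RNA-binding partner of Dicer (chr15:102518192-102523676, plus strand), had 64.8, 31.7 and 48.1 CPM in Let7d, 64.2, 66.8, 77.4 and 78.7 CPM in Let7e, 53.6, 38.3, 61.9 and 61.3 CPM in mi699a-5p, and 100, 90.4 and 104 CPM in NC. Every Let7d, Let7e and mi699a-5p mouse id was below every NC mouse id. Of all 7886 genes, 0.279% lay below NC in this way and 0.507% lay above it. Group means were 48.2 ± 16.6 CPM in Let7d, 71.8 ± 7.34 CPM in Let7e, 53.8 ± 11 CPM in mi699a-5p and 98 ± 6.78 CPM in NC (SD). The log2 fold change against NC was -1.02 ± 0.31 for Let7d (95% interval -1.66 to -0.38, unadjusted p = 0.00354, adjusted p = 0.886; edgeR). It was -0.45 ± 0.28 for Let7e (-1.04 to 0.14, unadjusted p = 0.127, adjusted p = 0.999; edgeR) and -0.87 ± 0.28 for mi699a-5p (-1.46 to -0.28, unadjusted p = 0.00642, adjusted p = 0.858; edgeR). These comparisons share the 3 NC mouse ids. The level was low with all 3 injected microRNAs, and the mean of both let-7 groups differed from mi699a-5p by 0.13 ± 0.23 (95% interval -0.36 to 0.62, unadjusted p = 0.586; edgeR).

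Tarbp2 was the least variable member among cells of the control, with a coefficient of variation of 32.6% over 22 NC cells. The median cell had 48.5 CPM in Let7d, 65.1 CPM in Let7e, 51 CPM in mi699a-5p and 95.4 CPM in NC. The interquartile range was 28.3 to 64.4 CPM in Let7d, 57.6 to 77 CPM in Let7e, 34.6 to 68.4 CPM in mi699a-5p and 74.4 to 117 CPM in NC. The upper quartile of Let7d and of mi699a-5p thus lay below the lower quartile of NC, and that of Let7e slightly above it. These quartiles pool the cells of all mouse ids of a label, and cells are not replicates. In the 10 alternative settings that kept every mouse id, among them all cells thinned to 1575609 reads and the ribosomal RNA rows left out, the log2 fold change stayed between -1.06 and -0.93 for Let7d and between -0.95 and -0.82 for mi699a-5p against NC.

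**Figure D2:**
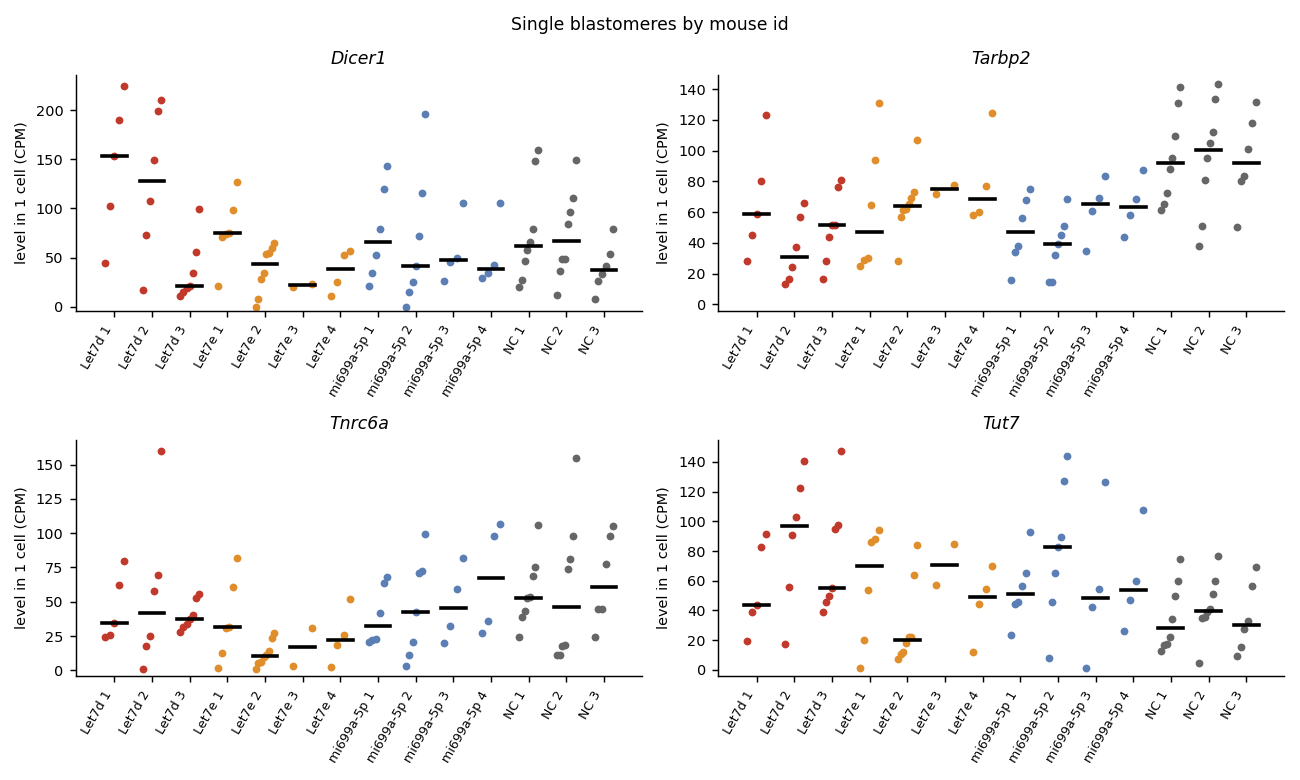
Level of Dicer1, Tarbp2, Tnrc6a and Tut7 in each of 81 blastomeres (vertical axis, CPM of the cell's own reads), by label and mouse id; the line is the median of the mouse id. The medians of Dicer1 are 153, 128 and 21.1 CPM in the 3 Let7d mouse ids, and those of Tarbp2 in NC are 91.8, 100 and 92.2 CPM.

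Of the other 8 listed partners of Dicer and loading chaperones, 6 had a row, and Prkra, which encodes the other double-stranded RNA-binding partner of Dicer, is not analysed here. The chaperones Hsp90ab1 (6300 ± 1056 CPM over 14 mouse ids) and Hspa8 (3758 ± 1039 CPM), which open Argonaute for loading of the duplex, were the most abundant of them. None of the 6 reached an unadjusted p under 0.05 in a comparison with NC. The closest was Hsp90aa1 in Let7d, with a log2 fold change of -0.50 ± 0.26 (unadjusted p = 0.0669; edgeR).

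Ago2, the Argonaute that can cleave its target (chr15:73095844-73184935, minus strand), had 474, 280 and 389 CPM in Let7d, 283, 578, 686 and 330 CPM in Let7e, 356, 274, 400 and 202 CPM in mi699a-5p, and 393, 291 and 698 CPM in NC. The groups overlapped throughout, and NC mouse id 3 was the highest of all. The log2 fold changes against NC were -0.27 ± 0.36 for Let7d (95% interval -1.04 to 0.49), 0.03 ± 0.34 for Let7e (-0.69 to 0.74) and -0.58 ± 0.34 for mi699a-5p (-1.29 to 0.13), with unadjusted p = 0.462, 0.941 and 0.103 (edgeR). The intervals are wide enough that changes of the size seen for Tarbp2 in Let7d (-1.02) lie just inside that of Let7d. The log2 fold change of mi699a-5p was -0.15 without NC mouse id 3 and -0.82 without NC mouse id 2 (unadjusted p = 0.675 and 0.0349; edgeR). The 3′ end of Ago2 overlaps Chrac1 on the opposite strand, with the same limit on assigning reads.

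Of the other 8 listed Argonautes and Argonaute partners, 7 had a row. Trim71, an RNA-binding ubiquitin ligase that is itself a classic let-7 target, averaged 369 ± 188 CPM in Let7d, 232 ± 83.7 CPM in Let7e, 331 ± 63.5 CPM in mi699a-5p and 317 ± 97 CPM in NC, and its log2 fold changes against NC were 0.22 ± 0.37, -0.45 ± 0.35 and 0.06 ± 0.35. Mov10, a helicase of the silencing complex, had 69.3, 115 and 120 CPM in Let7d, against 35.9, 69.8 and 46 CPM in NC. These groups overlapped by less than 1 CPM, and the log2 fold change was 1.0 ± 0.39 (unadjusted p = 0.0193, adjusted p = 0.986; edgeR). Mov10 averaged 78.8 ± 28.8 CPM in Let7e and 79.3 ± 30.2 CPM in mi699a-5p.

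Tnrc6a, which encodes a GW182 protein (chr7:123123885-123195296, plus strand), had 46, 49.2 and 37.8 CPM in Let7d, 39.8, 12.1, 17 and 24.2 CPM in Let7e, 41.8, 44.7, 47.9 and 64.7 CPM in mi699a-5p, and 59.2, 55.8 and 68.5 CPM in NC. All 7 let-7 mouse ids were below all 3 NC mouse ids, while mi699a-5p mouse id 4 reached into the NC range. Group means were 44.3 ± 5.89 CPM in Let7d, 23.3 ± 12.1 CPM in Let7e, 49.8 ± 10.2 CPM in mi699a-5p and 61.2 ± 6.6 CPM in NC (SD). Let7e against NC gave a log2 fold change of -1.39 ± 0.37 (95% interval -2.16 to -0.62, unadjusted p = 0.00131, rank 5 of 7886 genes, adjusted p = 0.999; edgeR). Let7d against NC gave -0.47 ± 0.39 (unadjusted p = 0.251) and mi699a-5p against NC -0.30 ± 0.37 (unadjusted p = 0.426; both edgeR). Between both mimics, Let7e against Let7d gave -0.93 ± 0.37 (95% interval -1.69 to -0.16, unadjusted p = 0.0207, adjusted p = 0.924; edgeR), and their mouse ids overlapped between 37.8 and 39.8 CPM. The mean of both let-7 groups against mi699a-5p gave -0.63 ± 0.30 (unadjusted p = 0.0486, adjusted p = 0.776; edgeR). With 1 mouse id left out it ran from -0.83 to -0.46, and the unadjusted p was under 0.05 in 2 of 14 such fits and in 7 of 10 other settings, DESeq2 not among them.

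In single cells, Tnrc6a had a median of 35.9 CPM in Let7d, 16.3 CPM in Let7e, 42.2 CPM in mi699a-5p and 53 CPM in NC. The 8 cells of Let7e mouse id 2, the lowest, ranged from 1.1 to 27.6 CPM with a median of 10.6 CPM. Let7e mouse id 3 holds 2 cells only, and 90.4% of its summed level came from one of them. Leaving out any 1 mouse id kept the Let7e difference from NC between -1.79 and -1.18 (unadjusted p 9.15e-05 to 0.00616 over 14 fits; edgeR), with an adjusted p of at least 0.416. Some of these fits left out a mouse id of another label and kept all of Let7e and NC. The 10 settings that kept every mouse id, thinned cells and ribosomal RNA rows left out among them, gave -1.55 to -1.39. Gm45846, a long noncoding RNA gene annotated on the same strand across the 5′ part of Tnrc6a, has no row of its own. Reads of that overlap cannot be assigned.

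Tnrc6b, a paralog of Tnrc6a (chr15:80711313-80941085, plus strand), had 20, 19.6 and 18.1 CPM in Let7d, 28.5, 18.7, 42.9 and 29.7 CPM in Let7e, 30.2, 42.8, 17.1 and 34.6 CPM in mi699a-5p, and 34.1, 43.1 and 6.16 CPM in NC. NC held both the highest and the lowest value, so no group stood apart. The log2 fold changes against NC were -0.53 ± 0.56 for Let7d, 0.11 ± 0.52 for Let7e and 0.17 ± 0.52 for mi699a-5p (unadjusted p = 0.355, 0.842 and 0.754; edgeR). In Let7d it was -1.0 without NC mouse id 3 (unadjusted p = 0.05; edgeR), -0.07 without NC mouse id 2 and -0.05 with limma on mean cell levels. In NC mouse id 3, 2 of 6 cells had no read of Tnrc6b. Tnrc6c, the other paralog, averaged 14.6 ± 4.43 CPM in Let7d, 16.6 ± 5.1 CPM in Let7e, 18.9 ± 3.19 CPM in mi699a-5p and 19.2 ± 9.93 CPM in NC, and no contrast reached an unadjusted p under 0.05. In Let7e against NC, the log2 fold changes of the 3 GW182 genes were -1.39 for Tnrc6a, 0.11 for Tnrc6b and -0.21 for Tnrc6c; differences between the 3 were not tested.

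Tut7, a terminal uridylyltransferase (chr13:59771561-59823147, minus strand), had 55.2, 85.3 and 71.4 CPM in Let7d, 58.2, 27.8, 73.8 and 43.8 CPM in Let7e, 58.8, 81.8, 49.3 and 56.4 CPM in mi699a-5p, and 37.8, 40.4 and 35.9 CPM in NC. All Let7d and mi699a-5p mouse ids were above all NC mouse ids, and Let7e mouse id 2 alone was below them. Group means were 70.6 ± 15 CPM in Let7d, 50.9 ± 19.7 CPM in Let7e, 61.6 ± 14.1 CPM in mi699a-5p and 38 ± 2.25 CPM in NC (SD), and NC had the narrowest spread. The log2 fold changes against NC were 0.89 ± 0.35 for Let7d (95% interval 0.15 to 1.64, unadjusted p = 0.0214, adjusted p = 0.986), 0.42 ± 0.33 for Let7e (-0.28 to 1.12, unadjusted p = 0.225) and 0.70 ± 0.33 for mi699a-5p (-0.01 to 1.40, unadjusted p = 0.052, adjusted p = 0.871), all from edgeR. The mean of both let-7 groups differed from mi699a-5p by -0.04 ± 0.27 (95% interval -0.61 to 0.53). It joins Let7d, which lay above mi699a-5p, with Let7e, which lay below it, and neither group alone was compared with mi699a-5p.

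Single cells of Tut7 overlapped widely. The median cell had 69.4 CPM in Let7d, 49 CPM in Let7e, 56.6 CPM in mi699a-5p and 35.5 CPM in NC, and the NC cells reached 76.5 CPM, above the median of every group. In Let7e mouse id 2 the median of 8 cells was 19.9 CPM, against 70, 70.7 and 49.2 CPM in the other Let7e mouse ids. Genes annotated within or across Tut7 (Gm49354, Gm48194 and, on the opposite strand, Etohd2) have no row of their own.

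Of the other 7 listed genes of tailing and let-7 precursor control, 6 had a row, and none reached an unadjusted p under 0.05 in any contrast. Tut4, the relative of Tut7, had log2 fold changes of 0.60 ± 0.47 for Let7d, 0.10 ± 0.44 for Let7e and 0.60 ± 0.44 for mi699a-5p against NC. Lin28a, which recruits these enzymes to let-7 precursors and is a let-7 target, averaged 81.3 ± 18 CPM in Let7d, 61.8 ± 18.8 CPM in Let7e, 55.7 ± 23.5 CPM in mi699a-5p and 68.5 ± 13.3 CPM in NC. Tent2, a cytoplasmic poly(A) polymerase, averaged 117 ± 35.6 CPM over the 14 mouse ids.

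**Figure D3:**
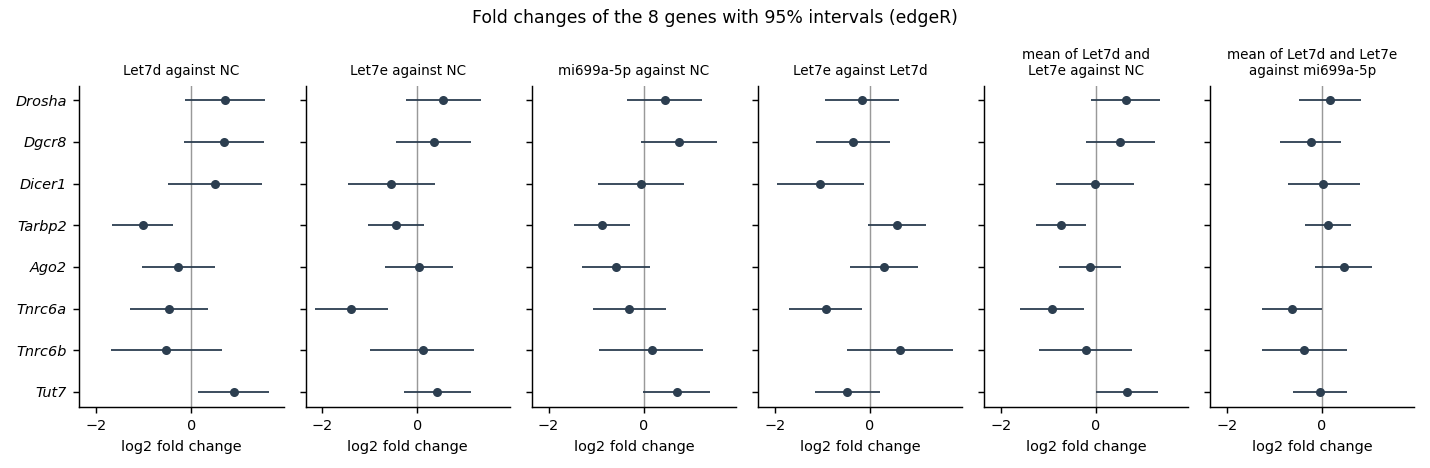
Log2 fold change (horizontal axis) of the 8 genes in the 6 contrasts, the first-named group over the second; points are edgeR estimates and bars are 95% intervals. The 10 intervals that leave out 0 belong to Tarbp2, Tnrc6a, Tut7 and Dicer1, among them Tarbp2 in Let7d against NC (-1.66 to -0.38) and Dicer1 in Let7e against Let7d (-1.95 to -0.13), while no adjusted p is under 0.05.

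The silencing complex acts through deadenylation and decapping, and the listed genes of these steps gave the same picture of single values without adjusted calls. Of 61 other pathway genes, 53 had a row and none passed the adjusted threshold in any contrast. At an unadjusted p under 0.05 there were 3 of 53 in Let7d (1 lower, 2 higher), 2 of 53 in Let7e (both higher) and 1 of 53 in mi699a-5p (higher) against NC, which is near or below the shares of all genes (4.69%, 4.02% and 5.5%). Their median log2 fold change was 0.13, 0.11 and 0.04, beside the medians of all genes given above. Edc4, the scaffold of the decapping complex, was the one gene of the list that met the unadjusted threshold in all 3 comparisons, which share the NC mouse ids. It had 66, 78 and 108 CPM in Let7d, 50.3, 84.3, 85.7 and 77.9 CPM in Let7e, 87.1, 82.7, 73.3 and 55.5 CPM in mi699a-5p, and 48, 47.9 and 50.9 CPM in NC. Only Let7e mouse id 1 reached into the NC range. Its log2 fold changes were 0.78 ± 0.30, 0.61 ± 0.28 and 0.61 ± 0.28 (unadjusted p = 0.0176, 0.0448 and 0.044; adjusted p = 0.986, 0.999 and 0.871; edgeR).

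Among the deadenylases, Pan2, the catalytic subunit of the PAN2-PAN3 complex, had 5.25, 12.4 and 11.5 CPM in Let7d, against 25.1, 20.6 and 33.8 CPM in NC. The groups did not overlap, as for 12% of all genes, and the log2 fold change was -1.45 ± 0.59 (unadjusted p = 0.0253, adjusted p = 0.986; edgeR). Cnot3, a subunit of the CCR4-NOT deadenylase, averaged 64.8 ± 32.5 CPM in Let7e and 31.8 ± 9.4 CPM in NC (log2 fold change 1.02 ± 0.40, unadjusted p = 0.021, adjusted p = 0.999; edgeR). Cnot9, another subunit, averaged 422 ± 60.4 CPM in Let7e and 565 ± 64.8 CPM in Let7d (-0.42 ± 0.19, unadjusted p = 0.0396, adjusted p = 0.924; edgeR). In the mean of both let-7 groups against mi699a-5p, Cnot11 (1.39 ± 0.47, unadjusted p = 0.009, adjusted p = 0.635) and Pabpc1, the poly(A)-binding protein that GW182 contacts (0.50 ± 0.19, unadjusted p = 0.0166, adjusted p = 0.689), were higher in edgeR's estimate. Pabpc1 averaged 506 ± 43.8 CPM in Let7d, 687 ± 67.6 CPM in Let7e, 416 ± 146 CPM in mi699a-5p and 569 ± 48.9 CPM in NC. Xrn2, an exonuclease, averaged 273 ± 52.9 CPM over the 14 mouse ids.

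**Figure D4:**
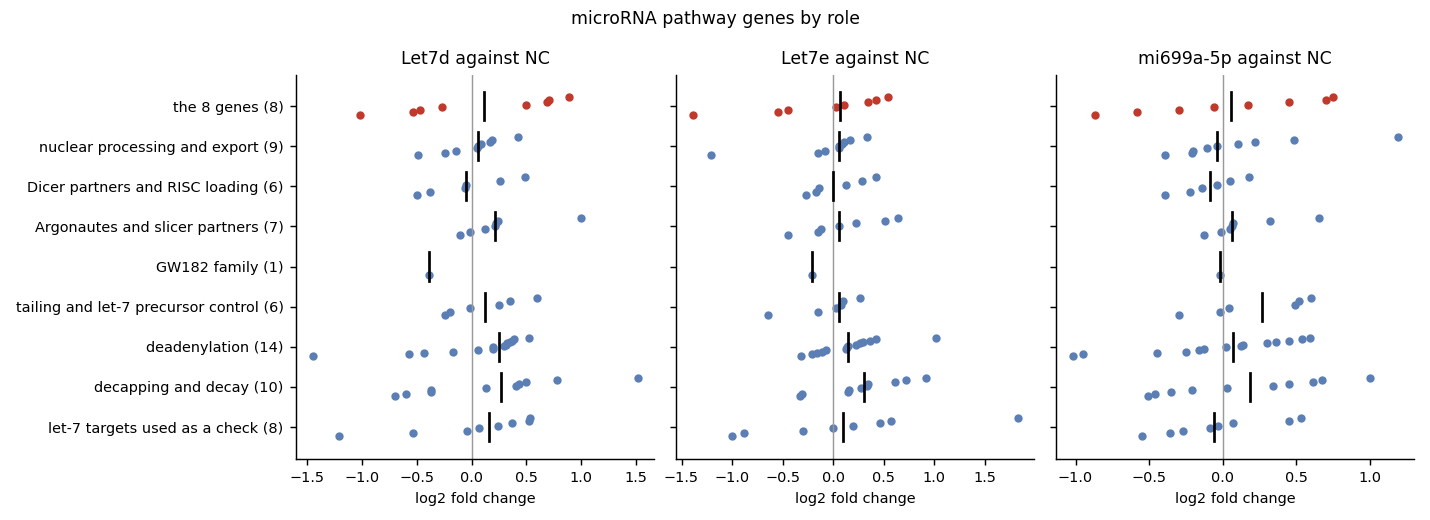
Log2 fold change (horizontal axis) of each gene in the 3 comparisons with NC, by role; red points are the 8 genes, blue points the other listed genes, black lines medians, and the number of genes is in parentheses. The medians of the 8 genes are 0.11, 0.07 and 0.06, with points on both sides of 0.

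A check list of let-7 targets was read for the effect of the mimics themselves. Of 9 targets 8 had a row, and none passed the adjusted threshold. Their median log2 fold change against NC was 0.16 for Let7d (3 of 8 below 0), 0.10 for Let7e (4 of 8) and 0.24 for the mean of both (3 of 8). Hmga2, the best known let-7 target, had 194, 168 and 123 CPM in Let7d, 156, 181, 90.3 and 78.1 CPM in Let7e, 249, 140, 181 and 156 CPM in mi699a-5p, and 204, 221 and 275 CPM in NC. All 7 let-7 mouse ids were below NC, and so were 3 of 4 mi699a-5p mouse ids. Between both let-7 groups and NC, 1.78% of all genes were without overlap, above or below. The log2 fold change of Let7e against NC was -0.88 ± 0.30 (unadjusted p = 0.0078, adjusted p = 0.999), and that of both let-7 groups -0.71 ± 0.26 (unadjusted p = 0.0148, adjusted p = 0.999; edgeR). Nras averaged 207 ± 52.1 CPM in Let7e and 139 ± 19.3 CPM in NC, with every Let7e mouse id above NC (log2 fold change 0.57 ± 0.31, unadjusted p = 0.0785; edgeR). Between Let7e and NC, 5.62% of all genes were without overlap, above or below. Ccnd2 in Let7e against NC gave 1.83 ± 0.99 (unadjusted p = 0.0804; edgeR). Over all genes with an 8mer in the 3′ UTR (286 genes) the median log2 fold change against NC was 0.07 for Let7d, -0.03 for Let7e and 0.09 for mi699a-5p. With any match to bases 2 to 8 there (802 genes) it was 0.05, 0.00 and 0.07, and over 6289 genes with no match it was 0.00, 0.02 and 0.04.

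Across the 14 mouse ids the members did not follow one another closely. Of their 28 pairs, the correlation of log2 levels was most negative between Tarbp2 and Tut7 (r = -0.75) and most positive between Dicer1 and Tnrc6a (r = 0.59). Points share labels, library and depth, so these are descriptions. The genes whose pattern over the 14 mouse ids was most like that of a member, by Pearson correlation, were Epc2 (r = 0.93), Nexn (0.90) and Jag1 (0.82) for Dicer1, and Plin3 (0.90), Cbs (0.90) and Psrc1 (0.87) for Tarbp2. For Tnrc6a they were Htr5b (0.88), Yipf5 (0.82) and Usp43 (0.82), and for Tut7 Ints4 (0.81), Gm13068 (0.78) and Pigm (0.78). For Ago2 they were Lrpap1 (0.92), Pdia5 (0.87) and Pou5f1 (0.86), and for Tnrc6b Rab34 (0.89), Zcchc17 (0.88) and Mad2l1bp (0.85). For Drosha they were Mrps30 (0.87), Fbxo30 (0.84) and Cxadr (0.84), and for Dgcr8 Hipk1 (0.84), Mphosph10 (0.84) and Gfod2 (0.82). They were picked as the highest of 7886, and no gene of the pathway list was among them.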

How the data were processed

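The authors deposited whole-number read counts by gene and blastomere that were not normalized, as the labels state and the values show. By their name, these counts had passed a CPM filter before deposit. The submitters' processing notes list STAR and GRCm38.p6; the counting program is not given in the sources used here. Of 92 labelled cells, 82 had a column and 10 were not analysed here; 0 columns were left unmapped. A deposited RPKM table was not used. Of 7886 rows, 7884 matched a GENCODE M21 symbol, 7663 with the same version. Columns were compared in pairs by chi-square per gene: 1 of 3321 pairs gave 1.05, against 28.7 for the next, and was summed as 1 cell, leaving 81 cells with 1575609 to 4950404 reads each. Counts were summed per mouse id (6329464 to 24037593 reads). Precision is limited by 3 or 4 mouse ids per group and by amplification copies.

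One edgeR 4.0.16 quasi-likelihood fit (R 4.3.3, TMM, filterByExpr, which removed 0 genes) of 14 mouse ids gave 6 contrasts and a test of any difference, two-sided, adjusted by Benjamini-Hochberg at 0.05. The common dispersion was 0.249 with 10 residual degrees of freedom. SE is the log2 fold change over the root of F; log2 levels used a prior count of 2. DESeq2 1.42.0, limma 3.58.1, other filters and scalings, thinned cells, a replicate block and leaving out each mouse id were alternatives. The members and lists were chosen with earlier results of these data known. Named besides the members are listed pathway genes with an unadjusted p under 0.05 or a high level, and the 3 genes closest to each member.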

Additional observations from a re-analysis of the deposited data

How the results depend on the processing

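No member passed the adjusted threshold under any of 10 alternatives that kept all mouse ids or 14 that left out 1, except that DESeq2 gave no adjusted p for 8 of 48 pairs of member and contrast (NA), which says nothing of them. Of the members' log2 fold changes, 472 of 480 values kept their direction with all mouse ids kept and 642 of 672 with 1 left out. With all mouse ids kept, the number of genes called over the whole table was 1 or 0 in edgeR and moved with the test. DESeq2 called 2 in Let7d, 7 in mi699a-5p and 5 in the mean of both let-7 groups against NC, 8 in Let7e against Let7d, 6 in both let-7 groups against mi699a-5p and 15 for any difference, where thinned cells gave 1. In Let7d against NC the count was 0 with only those groups or with the replicate block. In both let-7 groups against NC it was 0 with DESeq2 size factors, the replicate block, limma or ribosomal rows left out. It was also 0 with the mean of the 2 columns taken as 1 cell (chosen after seeing the data). With 1 mouse id left out, Let7d against NC gave 0 to 1 calls (0 without Let7d 1 or 3, Let7e 1, 2 or 4, mi699a-5p 1, or NC 1 or 3) and both let-7 groups against NC 0 to 1 (1 only without Let7d 2, mi699a-5p 3 or mi699a-5p 4). The ranges were 0 to 2 in mi699a-5p against NC (2 without mi699a-5p 3), 0 to 1 in Let7e against Let7d (1 without Let7d 2) and 0 to 1 for any difference (1 without Let7d 2 or mi699a-5p 3).

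Mouse numbers recur between groups but 1 of 19 same-numbered pairs had a correlation of deviations over 0.1 (range -0.126 to 0.128), so they were not treated as pairs. Directions that reversed were all of small differences, and the cause was not tested. For Dicer1 in mi699a-5p against NC (-0.06) the replicate block gave 0.02, limma 0.03 and thinned cells 0.03; for both let-7 groups against NC (-0.02) thinned cells gave 0.09; and for both against mi699a-5p (0.03) the block gave -0.16 and limma -0.09. Against NC, both let-7 groups gave 0.16 for Tnrc6b with limma (-0.21 as reported, -0.26 to -0.04 in the other settings) and 0.02 for Ago2 with the block (-0.12 as reported, -0.02 with limma). With 1 mouse id left out, ranges that crossed 0 were, for Ago2, -0.52 to 0.16 in Let7d, -0.22 to 0.46 in Let7e and -0.37 to 0.31 in both let-7 groups against NC. For Tnrc6b they were -0.37 to 0.57 in Let7e, -0.31 to 0.63 in mi699a-5p and -0.68 to 0.25 in both let-7 groups against NC. For Dicer1 they were -0.24 to 0.09 in mi699a-5p and -0.25 to 0.18 in both let-7 groups against NC, and -0.20 to 0.25 against mi699a-5p, where Tarbp2 had -0.01 to 0.26 and Tut7 -0.16 to 0.13. Drosha in Let7e against Let7d had -0.37 to 0.03. Tut7 in Let7d against NC ran from 0.74 to 1.04, with an unadjusted p under 0.05 in 12 of 14 fits. Tarbp2 kept an unadjusted p under 0.05 in all 14 fits in Let7d (-1.30 to -0.79) and mi699a-5p (-0.99 to -0.73) against NC. The 14 fits left out a mouse id of any label. Those that left out a label outside the contrast kept all its mouse ids, so these counts make the results look steadier than they are. Tarbp2 and Tut7 were chosen when known to stand out in these data, so the counts describe them and are no support.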
